A study of Homo sapiens with 4 samples.

Results

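The core genes of the Polycomb repressive complexes were followed in Kelly cells with and without a hairpin against BORIS. They were EZH1, EZH2, EED, SUZ12 and JARID2 of Polycomb repressive complex 2, and BMI1, RNF2, RING1, CBX2 and CBX8 of Polycomb repressive complex 1. These 10 genes were chosen for what their proteins do, but with earlier results of these data known. Counts of them are therefore a description and not a test. A probe set counted for a gene if the platform's annotation gave it that gene's symbol and no other. By this rule 8 of the 10 genes had 27 probe sets among 49293 for cellular transcripts, and no probe set carried the name RNF2 or CBX8 alone, so those genes were not analysed here. All 8 measured genes passed the filter on dim genes and belong to the 10946 genes tested out of 18244 with a named probe set.

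Kelly cells are an established line from a human neuroblastoma, in which MYCN is amplified and the receptor ALK is active. Those used were a derivative resistant to TAE684, an ALK inhibitor, and both groups were grown in 1 µM of it. One group was infected for 24 h with virus carrying the hairpin against BORIS (shBORIS, 2 arrays) and the other with virus carrying a luciferase hairpin (shLUC, 2 arrays), and both were then selected in puromycin for 48 h. The labels call the 2 arrays of a hairpin biological duplicates and do not say whether the resistant cells are 1 clone. They name 1 hairpin against BORIS, so its effects on other genes cannot be told apart from those of reduced BORIS. BORIS is the product of CTCFL, a germ-line paralog of the genome-organising factor CTCF.

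Polycomb complexes keep developmental genes silent. Complex 2 places methyl groups on lysine 27 of histone H3 through EZH2 or its paralog EZH1, which work only together with EED and SUZ12. Complex 1 adds ubiquitin to histone H2A through RING1 or RNF2 bound to a partner such as BMI1, and its CBX subunits bind the methyl mark. EZH2 is abundant in dividing cells, its gene is a described target of E2F factors, and in neuroblastoma it has been described as a repressor of differentiation genes.

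Total RNA, 100 ng per sample with ERCC spike-ins, was labelled and hybridised to Affymetrix PrimeView arrays, and the deposited value is an intensity on a linear scale. Sums over the 11 measured markers of sympathetic neuroblasts were 26750 and 27737 with shBORIS, against 20776 and 19671 with shLUC, and all 11 passed the filter on dim genes. The targeted gene, CTCFL, averaged 718.8 ± 25.7 on the shBORIS arrays and 3470 ± 133 on the shLUC arrays (SD, n = 2 each) by its brightest probe set. On its other probe sets above the filter the log2 difference as deposited was -1.26 to -3.05, except on a probe set where the groups overlapped (0.11). The dimmest, below the filter, was called higher as deposited (0.39). Most genes were brighter with shBORIS on the deposited scale, where the log2 difference of the median gene was 0.48, so each difference is given as deposited and also relative to the median gene, after that gene's level was subtracted from each array. Bulk arrays cannot tell more RNA per cell from more cells of a kind. Differences are shBORIS minus shLUC on the log2(intensity + 16) scale, with adjusted p-values from limma over all genes tested. The threshold was 0.05. With these 4 arrays the smallest two-sided p of an exact permutation test is 0.333, so the single-gene p-values draw on variances that limma shares between genes. Much of the gain in the neuroblast sum was CHGA, which read 6271.8 and 6238.6 with shBORIS and 2291.7 and 1974.3 with shLUC. Among the 11 markers, 6 rose and none fell on the deposited scale, where 77.2% of all genes tested rose and 4.6% fell. Relative to the median gene 2 rose (CHGA and DBH) and 7 fell, with a median of -0.17, where 30.2% of all genes rose and 28.9% fell. PHOX2A, STMN2 and MYCN, picked with their values known, were among the 7, at -0.65, -0.43 and -0.33.

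Most of the measured Polycomb core was higher in shBORIS cells, and the genes separated into those that exceeded the general shift and those that followed it. As deposited, all 8 measured genes rose and none fell, where 77.2% of all genes tested rose and 4.6% fell. Both shBORIS arrays lay above both shLUC arrays for all 8, as they did for 83.8% of genes tested. Relative to the median gene, EZH2, SUZ12, EED, JARID2 and BMI1 rose, 5 of 8, where 30.2% of all genes tested rose and 28.9% fell. On that scale EZH1, RING1 and CBX2 passed in neither direction, and the arrays of the groups were apart, shBORIS above, for 5 of 8, beside 40.3% of genes tested. The 8 differences had a median of 0.86 as deposited and of 0.39 on the relative scale, beside 0.48 and 0 for all genes tested. The members were not tested as a set.

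**Figure D1:**
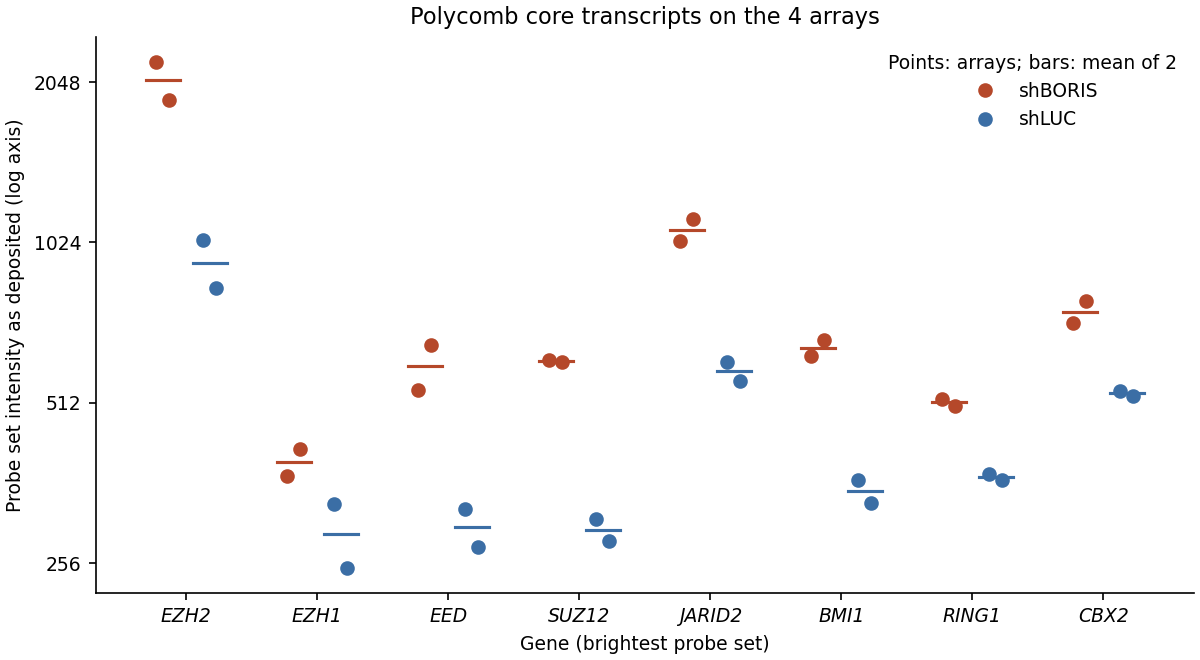
Intensity as deposited (log axis) of the brightest probe set of each measured gene, with points for single arrays and bars for the mean of 2, shBORIS to the left of shLUC. In all 8 genes both shBORIS points lie above both shLUC points, and the distance between means is largest for EZH2, SUZ12 and EED.

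EZH2, the main methyltransferase of complex 2 in dividing cells, had the largest difference of the 8. Its brightest probe set read 2232.8 and 1898.5 on the shBORIS arrays, against 1033.6 and 840.6 on the shLUC arrays. Both shBORIS arrays lay well above both shLUC arrays. EZH2 rose 2.19-fold as deposited (log2 1.13, SE 0.11; limma adjusted p = 1.37e-23). On the relative scale its rise was 1.57-fold (log2 0.65, SE 0.10; limma adjusted p = 2.62e-04). Its difference as deposited lay at percentile 96.9 of all genes tested, and genes in the same intensity decile, the brightest, had a median of 0.46. The decile medians were higher for other members, 0.56 for SUZ12 and EED, 0.60 for BMI1 and 0.62 for JARID2. Less the median of its decile, EZH2 read 0.67, SUZ12 0.45, EED 0.40, BMI1 0.26 and JARID2 0.25. On this measure EZH1, RING1 and CBX2 read -0.13, -0.11 and -0.11.

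The 3 EZH2 probe sets did not move alike. The second by brightness read 859.2 and 861.2 with shBORIS and 374.1 and 328.4 with shLUC, a difference of 1.26 as deposited and of 0.78 on the relative scale. The third, much dimmer, read 123.5 and 134.7 with shBORIS and 91.0 and 92.2 with shLUC. It differed by 0.43 as deposited and by -0.05 (SE 0.08) relative to the median gene, where it did not pass (limma adjusted p = 0.633). The 2 brighter probe sets therefore exceeded the general shift and the dimmest matched it. The transcripts that each probe set detects were not resolved here.

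EZH1, the paralog that predominates in cells that no longer divide, followed the general shift on its brightest probe set. This probe set read 373.3 and 418.8 with shBORIS, against 330.8 and 251.4 with shLUC. The groups did not overlap as deposited, but relative to the median gene they did. The difference was 0.43 as deposited (SE 0.11; limma adjusted p = 1.65e-04), and that call was lost without shLUC replicate 2 (0.25, adjusted p = 0.0948) and with the mean of the gene's probe sets (0.18, adjusted p = 0.0514). On the relative scale it was -0.04 (SE 0.09; limma adjusted p = 0.69). The other 2 EZH1 probe sets lay below the intensity filter of 61.4, with means of 59.57 and 47.32 over the 4 arrays. They differed by -0.53 and -0.33 relative to the median gene and were called lower, as were 46.1% of all cellular probe sets, which include many that are dim, so the direction of EZH1 relative to other genes depends on the probe set.

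Taken within each array, the log2 value of EZH2 minus that of EZH1 does not depend on how arrays are scaled against each other. It was 2.53 and 2.14 with shBORIS, against 1.60 and 1.68 with shLUC. Both shBORIS values were higher, with a mean difference of 0.70 between the groups (exact permutation test, two-sided p = 0.333, the smallest that 2 arrays against 2 allow). Without one array in turn the difference was 0.50 to 0.89, the lowest without shBORIS replicate 1. These values use the brightest probe set of each gene. The dimmest EZH2 probe set differed by 0.43 as deposited, the same as the brightest of EZH1. With the mean of each gene's probe sets the difference was 0.76. The values show an unequal change of the paralogs' brightest probe sets and not which transcript is more abundant.

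SUZ12, the scaffold of complex 2, was also higher. The brightest of its probe sets, of the class named s_at, read 615.4 and 611.3 with shBORIS, against 310.3 and 281.8 with shLUC. It rose 2.02-fold as deposited (log2 1.01, SE 0.11; limma adjusted p = 4.38e-18) and on the relative scale by 0.54 (SE 0.06; limma adjusted p = 4.72e-05). All 3 SUZ12 probe sets rose on both scales, the other 2 by less, with 0.19 and 0.25 relative to the median gene. On Affymetrix arrays that class marks probes that also match other transcripts, and SUZ12 has a closely similar pseudogene copy, so the size of the largest difference is uncertain. With the brightest probe set outside the s_at and x_at classes, an alternative chosen after seeing the data, SUZ12 rose by 0.19 relative to the median gene (limma adjusted p = 0.0194).

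EED, the subunit that binds the methyl mark and stimulates the enzyme, likewise differed between the groups. On its brightest probe set it read 542.3 and 657.2 with shBORIS, against 324.3 and 274.5 with shLUC. The groups were far apart compared with the spread within either. EED rose 1.95-fold as deposited (log2 0.96, SE 0.11; limma adjusted p = 1.67e-16) and on the relative scale by 0.49 (SE 0.07; limma adjusted p = 3.16e-04). Of its 4 probe sets, the 3 above the filter rose on both scales, by 0.33 to 0.49 relative to the median gene. The fourth, at a mean intensity of 26.94, was not called on either scale and read -0.24 relative to the median gene.

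JARID2, which helps bring complex 2 to its target genes, had 5 probe sets, and all 5 rose on both scales. The brightest, also of the s_at class, read 1030.6 and 1133.7 with shBORIS, against 610.4 and 563.8 with shLUC. JARID2 rose 1.82-fold as deposited (log2 0.86, SE 0.11; limma adjusted p = 1.75e-13) and on the relative scale by 0.39 (SE 0.05; limma adjusted p = 1.49e-04). The range over its probe sets was 0.21 to 0.63 relative to the median gene. The highest came from the third by brightness, which read 804.1 and 918.5 with shBORIS and 391.2 and 392.3 with shLUC. The direction was therefore shared by probe sets across a range of intensities, while the size was not. With the brightest probe set outside the s_at and x_at classes the rise was 0.21 (limma adjusted p = 0.00582).

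**Figure D2:**
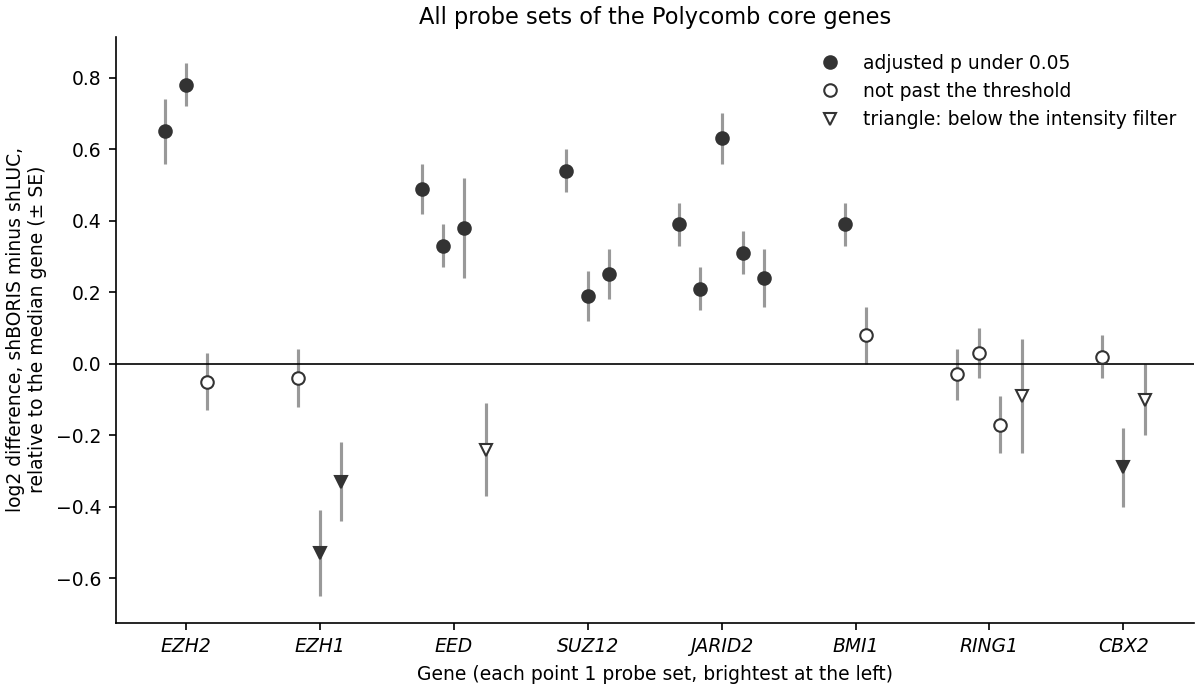
Difference relative to the median gene (log2, shBORIS minus shLUC, ± SE) of all 27 probe sets, with the brightest of each gene at the left, filled where the adjusted p was under 0.05 and drawn as a triangle where the mean intensity was under 61.4. All SUZ12 and JARID2 probe sets lie above 0, whereas EZH2 and BMI1 each have 1 that sits near 0.

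The promoters of SUZ12 and of both methyltransferase genes are shown as a description of their letters. Each window runs from 250 bases before to 50 bases after a gene's annotated start, from RefSeq on GRCh38.p14. Of the 10 genes, 8 had a window, 11 windows in all, and CBX2 and CBX8 had none in the table. The windows were searched on both strands for the E2F letters TTTCGCGC, TTTGGCGC and TTTCCCGC, which do not overlap one another here and are in capitals below. The EZH2 window is chr7:148884242-148884541, minus strand, the SUZ12 window chr17:31936757-31937056, plus strand, and the EZH1 window chr17:42744991-42745290, minus strand, each printed along its gene.
EZH2: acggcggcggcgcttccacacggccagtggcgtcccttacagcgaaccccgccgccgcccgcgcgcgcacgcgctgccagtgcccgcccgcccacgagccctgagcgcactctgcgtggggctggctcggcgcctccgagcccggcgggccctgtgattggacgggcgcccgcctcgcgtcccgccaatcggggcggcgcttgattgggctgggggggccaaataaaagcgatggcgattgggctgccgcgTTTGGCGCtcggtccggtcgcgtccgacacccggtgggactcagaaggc
SUZ12: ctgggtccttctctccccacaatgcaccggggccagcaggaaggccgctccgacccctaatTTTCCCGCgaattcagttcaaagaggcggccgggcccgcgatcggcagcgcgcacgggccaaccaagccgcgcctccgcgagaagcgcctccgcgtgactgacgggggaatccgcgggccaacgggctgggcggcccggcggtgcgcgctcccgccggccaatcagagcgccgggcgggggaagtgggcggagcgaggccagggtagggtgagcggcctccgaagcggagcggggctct
EZH1: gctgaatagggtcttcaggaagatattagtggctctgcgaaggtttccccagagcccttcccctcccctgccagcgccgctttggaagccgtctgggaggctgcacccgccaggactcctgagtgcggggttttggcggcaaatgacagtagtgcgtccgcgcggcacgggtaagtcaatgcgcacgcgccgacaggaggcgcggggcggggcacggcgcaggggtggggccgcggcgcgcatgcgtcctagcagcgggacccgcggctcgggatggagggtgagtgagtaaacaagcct
The EZH2 window holds TTTGGCGC, beginning 1 base after the annotated start, and the SUZ12 window holds TTTCCCGC, beginning 189 bases before it. No other window of a member held these letters, a second EZH2 window and those of EZH1, EED, JARID2, BMI1, RING1 and RNF2 included. Over all 35116 windows of the same length, 2.74% held one. The EZH2 window also had 4 matches to CCAAT, which 34.6% of windows hold. The EZH2 and SUZ12 windows printed above had 46 and 40 CpG pairs, and the EZH1 window had 30. The second EZH2 window had 45, the EED window 16, RING1 and RNF2 41 each, JARID2 24 and 40, and BMI1 36 and 65. The median over all windows was 14. The letters AGGGGGC or AGGTGGC, part of the CTCF motif that BORIS also recognises, were found in 20.0% of all windows. Among the members, they were in the windows of JARID2 and in the BMI1 window with 36 CpG pairs, but not in the other BMI1 window. A match is a description of the letters and not evidence of binding. EED, JARID2 and BMI1, whose windows held none of the E2F letters, also rose relative to the median gene. EZH1 and RING1, whose windows held none either, did not pass there, at -0.04 and -0.03. The part of E2F factors in the differences was not tested.

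BMI1, the subunit of complex 1 that stimulates its ubiquitin ligase, was called relative to the median gene by 1 of its 2 probe sets. The brighter, of the s_at class, read 626.6 and 670.6 with shBORIS, against 367.3 and 332.0 with shLUC. The groups did not overlap on either scale. BMI1 rose 1.82-fold as deposited (log2 0.86, SE 0.11; limma adjusted p = 2.02e-13) and on the relative scale by 0.39 (SE 0.06; limma adjusted p = 2.17e-04). The only other BMI1 probe set read 210.5 and 224.1 with shBORIS and 138.4 and 146.2 with shLUC. It rose by 0.56 as deposited, but on the relative scale it read 0.08 (SE 0.08; limma adjusted p = 0.371). The relative call therefore rests on the s_at probe set.

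RING1, a ubiquitin ligase of complex 1, differed from the median gene by less than its error. On its brightest probe set it read 520.7 and 506.3 with shBORIS, against 376.3 and 367.4 with shLUC, with very close replicates. It rose by 0.45 as deposited (SE 0.11; limma adjusted p = 1.26e-04) and read -0.03 on the relative scale (SE 0.06; limma adjusted p = 0.733), where the groups overlapped. All 4 RING1 probe sets rose as deposited, and none of the 4 passed relative to the median gene, where they ranged between -0.17 and 0.03. RNF2, the paralog that provides most of this activity in many cells, was not analysed here.

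CBX2, a reader of the methyl mark that also compacts chromatin, was like RING1 in this respect. Its brightest probe set read 723.8 and 795.4 with shBORIS, against 539.4 and 527.7 with shLUC. It rose by 0.50 as deposited (SE 0.11; limma adjusted p = 2.62e-05) and read 0.02 on the relative scale (SE 0.06; limma adjusted p = 0.793). With each array's median over all cellular probe sets subtracted instead, it passed at 0.16 (limma adjusted p = 0.0469). The other 2 CBX2 probe sets lay below the filter, at -0.29 and -0.10 relative to the median gene, the first of them called lower.

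Over the 27 probe sets together, 23 rose and none fell as deposited, where 51.8% of all cellular probe sets rose and 3.22% fell. On the relative scale 14 rose and 3 fell, where 16.5% and 46.1% did. Those shares are over probe sets with no filter, many of them dim, whereas 21 of the 27 lay above the filter. Among the genes tested, which all passed it, 30.2% rose and 28.9% fell on the relative scale. As deposited, 77.2% of those genes rose and 4.6% fell. Both shBORIS arrays exceeded both shLUC arrays, as deposited, for 25 of the 27, beside 67.2% of all cellular probe sets. The 2 that overlapped were dim probe sets of EZH1 and RING1. Probe sets of 1 gene share its transcripts and are not independent.

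Partners of the core genes were counted in the same way. Of 9 tested accessory subunits of complex 2, 5 rose and 1 fell on the relative scale, the median being 0.16, beside 30.2% and 28.9% of all genes tested. PHF19, a reader of methylated histone H3 that recruits complex 2, had the largest rise at 0.86 (SE 0.06; limma adjusted p = 1.85e-06). It read 951.1 and 1058.2 with shBORIS, against 396.9 and 378.9 with shLUC, and 2 of its 3 probe sets above the filter went this way. The histone-binding subunit RBBP7 rose by 0.60, and the accessory factor AEBP2 by 0.25. EPOP, which links complex 2 to elongin, fell by 0.59 on the relative scale, reading 135.9 and 141.0 with shBORIS against 150.3 and 151.7 with shLUC. It was not called as deposited at -0.11 (limma adjusted p = 0.32). As deposited, 8 of the 9 rose and none fell, with a median of 0.64, a count near the 77.2% of all genes that rose.

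Among 24 tested partners of complex 1, 12 rose and 3 fell on the relative scale, the median being 0.13, and 21 rose and none fell as deposited, with a median of 0.61. The shares of all genes tested were 30.2% and 28.9% on the relative scale and 77.2% and 4.6% as deposited. SCMH1, a Polycomb protein with a sterile alpha motif, rose by 0.65 (SE 0.09; limma adjusted p = 1.79e-04), with all 4 of its probe sets of this sign. PCGF6, a BMI1 relative of a variant complex 1, rose by 0.47. AUTS2, a partner of other variant complexes, rose by 0.38, but only 1 of its 3 probe sets above the filter went this way. SCML1 rose by 0.36, with 2 of 3 of this sign. The 3 that fell, picked with their values known, were the CBX2 relative CBX7 at -0.29, FBRSL1 at -0.27 and the BMI1 relative PCGF1 at -0.25; as deposited they read 0.18, 0.21 and 0.23 and none passed.

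Enzymes and cofactors that remove the Polycomb marks were described in the same way. Of 10 tested, 4 rose and 1 fell on the relative scale, the median being 0.19, and 9 rose and none fell as deposited, with a median of 0.67. The counts that rose were close to the 30.2% and 77.2% of all genes tested that rose on these scales. USP16, which takes ubiquitin off histone H2A, rose by 0.63 (SE 0.08; limma adjusted p = 8.05e-05). USP21, another deubiquitinase, and ASXL1, a cofactor of the deubiquitinase BAP1, rose by 0.35 each, with 5 of 7 ASXL1 probe sets of this sign. FOXK1, a transcription factor that binds the BAP1 complex, fell by 0.51 on the relative scale and read -0.03 as deposited. The demethylases of lysine 27, KDM6A and KDM6B, named for their role with their values known, read 0.10 and -0.10 relative to the median gene and did not pass there.

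Known Polycomb targets were examined in 3 lists. Of 25 tested developmental regulators, 7 rose and 4 fell relative to the median gene, and the median was -0.01. The share that rose was near the 30.2% of all genes tested, and 28.9% of all genes fell. The neurogenic factor NEUROG2 fell by 0.76, reading 169.2 and 186.7 with shBORIS against 230.1 and 208.4 with shLUC, and its relative NEUROG1 fell by 0.52. The limb and heart factor TBX2 rose by 0.39 and the homeobox factor DLX6 by 0.33. As deposited, 22 of the 25 rose and 1 fell, and the median was 0.46, beside 77.2% and 4.6% of all genes tested. Of the 86 listed regulators 80 had a probe set, so most were too dim to test.

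Of 13 tested HOX genes, which pattern the body axis and are classic Polycomb targets, 5 rose and 2 fell on the relative scale, the median being -0.07, and 11 rose and none fell as deposited, with a median of 0.41. Over all genes tested, 30.2% rose and 28.9% fell on the relative scale, and 77.2% rose as deposited. HOXC8 had the largest difference, 0.82 (SE 0.06; limma adjusted p = 3.58e-06), and read 514.6 and 552.3 with shBORIS against 210.0 and 203.8 with shLUC. HOXD3 rose by 0.39. HOXD10 and HOXD8 fell by 0.70 and 0.27, and 1 of the 2 HOXD10 probe sets above the filter went this way. Neither HOXD10 nor HOXD8 was called as deposited, where they read -0.22 and 0.21.

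Of 9 tested genes described as repressed by EZH2 or Polycomb in tumours, 7 fell and none rose on the relative scale, the median being -0.42, while as deposited 4 rose and 3 fell, and the median was 0.06. Over all genes tested, 30.2% rose and 28.9% fell on the relative scale, and 77.2% rose and 4.6% fell as deposited. The list was chosen with earlier results of these data known, so its counts are a description and not a test. It includes genes that other pathways also control. The cell cycle inhibitor CDKN1C fell by 1.22 (SE 0.07; limma adjusted p = 1.27e-06), reading 184.6 and 196.9 with shBORIS against 365.5 and 297.8 with shLUC on a probe set of the x_at class, whose probes can match other transcripts. All 3 CDKN1C probe sets above the filter were of this sign. The secreted chaperone CLU and the neurotrophin receptor NGFR fell by 0.79 and 0.77, and these 3 also fell as deposited, by 0.74, 0.31 and 0.30. RUNX3, a transcription factor, fell by 0.42 on the relative scale and read 0.06 as deposited. CLU, NGFR, RUNX3 and CASZ1 are genes described as EZH2-repressed in neuroblastoma. CASZ1, picked with its value known, fell by 0.16 on the relative scale (limma adjusted p = 0.0486) and rose by 0.31 as deposited. Neither histone marks nor Polycomb proteins were measured, and whether these genes changed through the complexes was not tested.

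**Figure D3:**
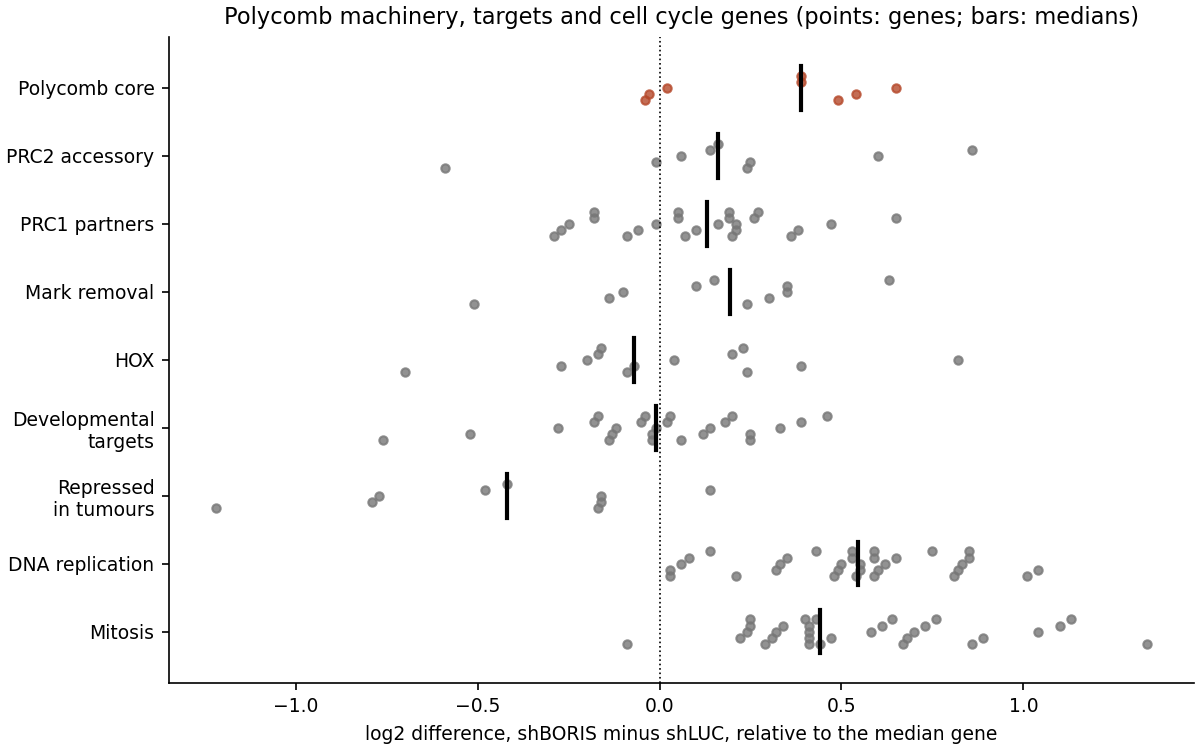
Difference relative to the median gene (log2, shBORIS minus shLUC) of each tested gene in 9 lists, with a bar at the list's median. The Polycomb core median is 0.39, the medians of the 3 target lists lie between -0.42 and -0.01, and the DNA replication and mitosis medians are 0.55 and 0.44.

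Cell cycle genes were mostly higher too, as were 5 of the 8 measured Polycomb core genes on the relative scale. Arrays in 2 groups cannot show whether the genes of these lists vary together. Relative to the median gene, 27 of 32 tested genes of DNA replication and S phase rose and none fell, with a median of 0.55, and 30 of 31 mitosis genes rose and none fell, with a median of 0.44, where 30.2% of all genes rose. Their summed intensities were 39710 and 42212 with shBORIS, against 22681 and 20721 with shLUC, for replication, and 39503 and 41403 with shBORIS, against 21421 and 19908 with shLUC, for mitosis. E2F1, a transcription factor of the G1/S transition picked with its value known, rose by 0.59. The part of cell cycle activity in the Polycomb differences was not tested. Most markers of other cell types lay under the filter. Of 6 Schwann cell and glial markers with a probe set 1 passed the filter, with sums over the 6 of 254 and 285 with shBORIS and 291 and 265 with shLUC. Of 9 fibroblast markers 3 passed, with sums over the 9 of 967 and 1036 with shBORIS and 1180 and 1220 with shLUC, of which the collagen gene COL1A1 made up 451.2 and 514.8 with shBORIS and 729.3 and 779.2 with shLUC. COL1A1 and the actin gene ACTA2 fell on both scales, by 0.63 and 0.58 as deposited and by 1.11 and 1.06 relative to the median gene. PDGFRB, the third fibroblast marker tested, read 265.5 and 287.5 with shBORIS and 204.9 and 198.2 with shLUC and was called higher only as deposited. The part of such cells in the Polycomb differences was not tested. Of 12 endothelial and blood cell markers 4 passed, with sums over the 12 of 556 and 553 with shBORIS and 560 and 476 with shLUC. The leukocyte marker PTPRC was between 10.7 and 15.9 on all 4 arrays.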

How the data were processed

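The members and gene lists were chosen with earlier results of these data known. The deposited values are probe set intensities, 1 column per array, with no pooling. The submitters' processing notes name MAS5, affy and R 3.1.3 without their roles. How the 4 arrays were scaled to each other is not given in the sources read for this work. ERCC probe sets had medians of 25.5 and 25.8 with shBORIS and 24.8 and 24.4 with shLUC. Those of cellular probe sets were 80.8 and 84.5 with shBORIS and 64.4 and 60.4 with shLUC.

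Of 49495 probe sets, 202 controls were left out. Single symbols (45278 probe sets) were updated by Entrez identifier through RefSeq (GRCh38.p14), matching 45208. A gene took its probe set with the highest mean log2(intensity + 16), and genes under the 40th percentile, an intensity of 61.4, were left out. The log2 values were compared with limma 3.58.1 (R 4.3.3, trend on intensity), 2 arrays against 2, with 2 residual degrees of freedom and Benjamini-Hochberg adjustment. As deposited, the prior had infinite degrees of freedom, so very small p-values understate the uncertainty; relative to the median gene it had 7.86. Single probe sets were fitted with all cellular probe sets, with no filter and the same medians subtracted. The fit was tested on simulated data with 200 genes changed, equally often up and down, and no general shift. It therefore shows nothing about calls under the general shift of these data. Named genes were all members, CTCFL and up to 4 called genes per Polycomb list by smallest p; other genes are named where a count is 5 or fewer, or are marked as picked with their values known. The planned RNF2 and CBX8 paralog comparisons had no probe set. Precision is limited by the number of arrays.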

Additional observations from a re-analysis of the deposited data

How the results depend on the processing

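Relative to the median gene, EZH2, EED, SUZ12 and JARID2 stayed called higher under all 14 alternatives, with ranges of 0.49 to 0.81, 0.28 to 0.63, 0.19 to 0.68 and 0.21 to 0.53, and BMI1 under 13 of 14, with a range of 0.08 to 0.53. The exception was the exclusion of s_at and x_at probe sets, chosen after seeing the data (0.08, adjusted p = 0.365), which left 4 members called. The 3 members not called relative to the median gene lay near 0 and changed sign. EZH1 read 0.07 with no filter on dim genes, 0.10 with the median of all cellular probe sets, and from -0.18 without shLUC replicate 2 up to 0.09 without shLUC replicate 1, and as the mean of its probe sets it was called lower (-0.26, adjusted p = 0.0043), the 1 member called lower there. RING1 read 0.0016 with an offset of 64, 0.09 with no filter, 0.12 with the median of all cellular probe sets, 0.0087 without shLUC replicate 2, and from -0.09 to 0.04 without each array in turn. CBX2 read -0.05 with a 60th percentile filter, -0.08 with the mean of probe sets, -0.11 after quantile normalization, -0.0026 without shBORIS replicate 2, and from -0.02 to 0.06 without each array in turn. The cause was not tested.

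Over all genes tested, 504 were lower as deposited and 275 with the 60th percentile filter, which tests fewer genes. Relative to the median gene, 3307 were higher and 3161 lower. With no filter 5083 were lower, with the 60th percentile filter 2164 were higher, and with the median of all cellular probe sets 4996 were higher and 1908 lower. The replicate numbers do not pair the arrays by their labels, and deviations of same-numbered arrays correlated at 0.098 over genes. With the replicate block, 8 members were higher on the deposited scale and 5 on the relative one, as without it, and 7617 and 378 genes in place of 8452 and 504 were higher and lower as deposited. The simulated fit shows nothing about batches, which the labels do not give.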
